A study of Mus musculus with 24 samples.

Results

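Lymph node B cells lacking both PU.1 and SpiB (PU.1 SpiB DKO) were compared with B cells lacking SpiB alone (SpiB KO) after culture with LPS + IL-4. The comparison rests on 4 of the 24 RNA sequencing libraries of the series, 2 of each genotype, and on all genes with at least 0.5 counts scaled to library size (CPM) in at least 2 of these 4 libraries, which were 12209 of the 27179 genes counted. The SpiB KO mice were Spi1fl/fl Cd23+/+ Spib-/- and the PU.1 SpiB DKO mice Spi1fl/fl Cd23T/+ Spib-/-, all on C57BL/6. Both groups therefore lacked SpiB and carried the floxed Spi1 alleles, and they differed in Cd23T, a BAC transgene in which the regulatory sequences of the CD23 gene drive Cre. Because the SpiB KO mice carry no Cre, loss of PU.1 and presence of the Cre transgene cannot be told apart within this comparison. Mice were 6 to 20 weeks old. Purified lymph node B cells were kept for 48 h in LPS (20 µg/ml) plus IL-4 (10 ng/ml), and B220+ CD3- CD138- cells were sorted for RNA. The culture of each library follows its title and characteristics, since 1 protocol text naming CD40L is attached to every sample. Libraries of control (Cd23T/+) and PU.1 cKO (Spi1fl/fl Cd23T/+) B cells from the same culture, 2 of each, entered the same fit. In that pair both genotypes carry Cre.

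PU.1, encoded by Spi1, and SpiB, encoded by Spib, are transcription factors of the Ets family that recognise the same purine-rich DNA core and, in B cells, also bind composite sites together with IRF4 or IRF8. They are known as activators of genes for B cell surface receptors and their signal relay. LPS is sensed through TLR4 with its co-receptors and drives B cells to divide and to differentiate into antibody-secreting cells, while IL-4 promotes class switching to IgG1 and IgE.

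The 4 libraries held 60050419 and 22939756 counts on genes for SpiB KO, against 39234563 and 31238525 for PU.1 SpiB DKO, and replicates correlated across genes at 0.993 in each genotype (Pearson's r of log2 CPM). The T cell receptor genes Cd3d, Cd3e and Cd3g reached at most 0.134 CPM in any library of the culture, Lyz2 and Csf1r of macrophages at most 0.0245 and 0.0894 CPM, and Siglech of plasmacytoid dendritic cells (pDC) at most 0.0433 CPM. Replicate 1 of every genotype expressed Xist (168 to 247 CPM) and replicate 2 the Y-linked genes Ddx3y and Kdm5d (72.5 to 75.8 and 30.4 to 34.7 CPM). The replicates of a genotype thus differed in sex, in the same way in both groups. Each level below is in CPM, normalized by the TMM method, with replicate 1 given first.

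The alleles were examined first. Over the whole Spi1 gene (chromosome 2, 91082374 to 91115759 of GRCm38), the SpiB KO libraries held 75.1 and 81.9 CPM and the PU.1 SpiB DKO libraries 63.0 and 58.7 CPM. The groups did not overlap, as in 59.3% of all tested genes. The log2 fold change of PU.1 SpiB DKO against SpiB KO was -0.37 (SE 0.10, edgeR adjusted p = 0.0354), under the fold change of 1.5. The floxed exon 5 was not separated in the deposited counts, which give 1 value per gene, so this level does not measure functional Spi1 mRNA. Spib (chromosome 7, 44525995 to 44532087), from which exon 6 is deleted in both groups, was at 18.2 and 14.4 CPM in SpiB KO against 14.8 and 11.9 CPM in PU.1 SpiB DKO (log2 fold change -0.29, SE 0.19, edgeR adjusted p = 0.327). In control cells Spib stood at 277 and 211 CPM.

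Mybpc3, a cardiac sarcomere gene that lies directly beyond the 3' end of Spi1 (chromosome 2, 91118114 to 91136516), had the largest change of all DE genes with at least 10 CPM in the higher group. It was at 0.904 and 0.805 CPM in SpiB KO against 342 and 296 CPM in PU.1 SpiB DKO, a log2 fold change of 8.51 (SE 0.14, edgeR adjusted p = 2.56e-09). PU.1 cKO libraries held 323 and 292 CPM and control libraries 0.173 and 0.198 CPM. The high level was thus found in each library with both the floxed allele and Cre. Fcer2a, which encodes CD23 (chromosome 8, 3680280 to 3694174), was at 473 and 434 CPM in SpiB KO against 212 and 182 CPM in PU.1 SpiB DKO (log2 fold change -1.21, SE 0.12, edgeR adjusted p = 0.00029). Control and PU.1 cKO libraries, from mice that also carry Cre, held 792 and 718 CPM and 621 and 497 CPM.

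Of the 12209 genes, 1555 (12.7%) were differentially expressed (DE), with a Benjamini-Hochberg adjusted p under 0.15 in edgeR's quasi-likelihood test and a fold change over 1.5. Higher in PU.1 SpiB DKO were 1025 genes (8.4%) and lower 530 (4.34%). The median log2 fold change was 1.09 among the genes that rose and -0.91 among those that fell, and 190 genes rose but 36 fell by more than 4-fold. Of the genes that rose, 299 had a mean under 1 CPM in SpiB KO. The libraries of the 2 groups did not overlap in 7241 genes (59.3% of those tested), and in 1551 of the DE genes. All 1555 DE genes changed in the same direction in the pair of replicates 1 and in the pair of replicates 2. The DE genes were chosen on these same libraries, so this agreement and their lack of overlap are nearly fixed by that choice. The median log2 fold change over all tested genes was -0.023. Leaving out a library gave 695 to 925 genes higher and 406 to 509 lower. In the plot of change against level, the DE genes spread over the whole range of expression.

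**Figure D1:**
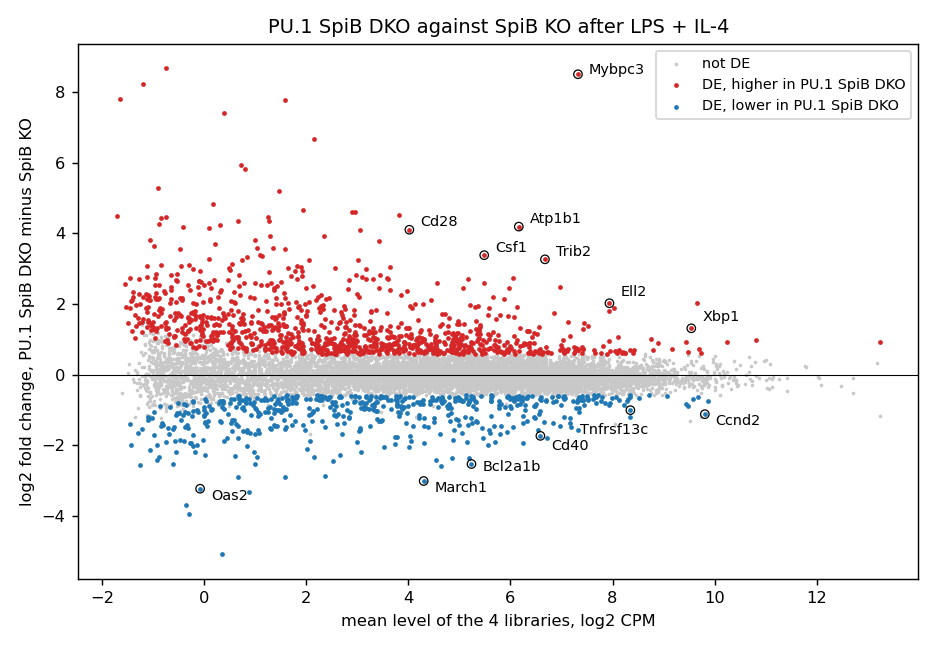
Log2 fold change of PU.1 SpiB DKO against SpiB KO after LPS + IL-4 (vertical axis) against the mean level of the 4 libraries in log2 CPM (horizontal axis), 1 point per tested gene. Red and blue points are the 1025 genes higher and 530 genes lower in PU.1 SpiB DKO, grey points are not DE, and circles mark named genes such as Mybpc3 at 8.51 and March1 at -3.01.

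Among the DE genes with at least 10 CPM in the higher group, the largest rises after Mybpc3 were those of Rgs16 (4.61), P2rx3 (4.60), Slpi (4.53), Atp1b1 (4.20), Cd28 (4.11), Zfp521 (4.10), Spp1 (3.79), Csf1 (3.39) and Trib2 (3.27), given as log2 fold changes. Atp1b1, the beta subunit of the sodium-potassium pump, went from 6.88 and 8.09 CPM in SpiB KO to 136 and 135 CPM in PU.1 SpiB DKO (SE 0.12, edgeR adjusted p = 1.57e-07). Trib2, a pseudokinase of the Tribbles family, was at 19.7 and 18.7 CPM against 198 and 173 CPM (SE 0.15, edgeR adjusted p = 7.63e-06). Both members of this pair also stood higher in PU.1 cKO than in control, though below their PU.1 SpiB DKO level: Atp1b1 at 54.4 and 54.7 CPM against 4.29 and 3.63, and Trib2 at 47.0 and 51.2 against 10.2 and 7.14. Csf1, the macrophage growth factor, was at 9.51 and 5.77 CPM in SpiB KO against 87.6 and 76.4 CPM in PU.1 SpiB DKO (SE 0.25, edgeR adjusted p = 4.94e-05). Exons of Rgs16, P2rx3 and Atp1b1 overlap those of a gene on the other strand in GENCODE vM21, and the kit does not mark strand, so reads in the overlap are uncertain. The same holds for Ell2, Il4ra, March1, Fcgr2b, Cd72, Tirap, Nfkb2, Foxo1, Etv6, Dnajb9, Ciita, H2-Oa, Ifi30, Ebi3, Cdkn1a, Ccnd2, Tlr3, Bcl6 and Bach2, named further on, while Slpi, Spp1, Bcl2a1b, Pou2f2, Csf2rb2 and Ccr9 overlap a gene on their own strand.

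The largest falls were those of March1 (-3.01), Plbd1 (-2.58), Bcl2a1b (-2.53), Ccr6 (-2.42), Bcl2a1d (-2.36), Lad1 (-2.35), Oas3 (-2.26), Lifr (-2.19), Emr1 (-2.06) and Slfn8 (-2.04). March1, a ubiquitin ligase that removes MHC class II and CD86 from the cell surface, was at 34.6 and 35.6 CPM in SpiB KO against 5.23 and 3.40 CPM in PU.1 SpiB DKO (SE 0.28, edgeR adjusted p = 0.000172). Bcl2a1b and Bcl2a1d encode A1, an anti-apoptotic BCL2 protein. Bcl2a1b was at 62.2 and 66.4 CPM against 10.2 and 12.1 CPM, and Bcl2a1d at 46.8 and 49.9 CPM against 8.17 and 10.7 CPM (edgeR adjusted p = 7.63e-06 and 3.72e-05). These paralogs are nearly identical in sequence and only uniquely mapped reads were kept, so the split between them is uncertain. Ccr6, the receptor of the chemokine CCL20, fell from 36.1 and 42.7 CPM to 7.12 and 7.62 CPM (SE 0.17, edgeR adjusted p = 3.83e-05). Its level in SpiB KO was above the 18.2 and 13.2 CPM of control and the 13.4 and 12.5 CPM of PU.1 cKO.

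Promoter sequences were read beside these changes, since the genes that fell include some with a site of the kind that PU.1 and SpiB recognise directly before the start. In the 250 bases before each start annotated by RefSeq (GRCm38.p6), both strands were searched for GAGGAAGT, a high-affinity PU.1 core, for GGAANNGAAA, the Ets-IRF composite, and for GAAANNGAAA, which resembles the interferon-stimulated response element. The last pair share their final letters, and 61 promoters of the whole table hold both. GAGGAAGT was found in 2.44% of all 32851 promoters, in 2.60% of the 11683 of tested genes, in 5.58% of the 502 of genes that fell and in 2.76% of the 907 of genes that rose. GGAANNGAAA was found in 2.30%, 1.89%, 3.98% and 1.76% of the same promoters, and GAAANNGAAA in 2.98%, 2.76%, 8.57% and 2.98%. Promoters were found in the table for 405 of the 530 genes that fell and 675 of the 1025 that rose. These shares are descriptions of letters, not of binding. For the genes that fell, 5 promoters chosen for holding a match are shown, 5' to 3' on the strand of the gene and ending at the base before the start, with matches in capitals. They are the promoter of Rasgrp3, a relay of B cell receptor (BCR) signals (chr17:75435655-75435904, plus strand, a PU.1 core 50 bases before the start), of Bcl2a1d (chr9:88731851-88732100, minus strand, a PU.1 core 104 bases before the start), of Fcgr2b, the inhibitory IgG receptor of B cells (chr1:170976072-170976321, minus strand, an Ets-IRF composite on the opposite strand 35 bases before the start), and of the interferon-stimulated genes Ifit1 (chr19:34640639-34640888, plus strand) and Isg15 (chr4:156200819-156201068, minus strand), with interferon-response matches that overlap one another in Isg15. A second annotated start of Rasgrp3 had no match, nor had the promoters of Tlr9, Tnfrsf13c, Btk, Pik3ap1, Ifih1 and Ccr6. From sequencing of PU.1-bound DNA in LPS-activated plasmablasts, the study reports PU.1 at the proximal promoters of Tnfrsf13c and Tlr9. A missing match is therefore not a missing binding site.
Rasgrp3: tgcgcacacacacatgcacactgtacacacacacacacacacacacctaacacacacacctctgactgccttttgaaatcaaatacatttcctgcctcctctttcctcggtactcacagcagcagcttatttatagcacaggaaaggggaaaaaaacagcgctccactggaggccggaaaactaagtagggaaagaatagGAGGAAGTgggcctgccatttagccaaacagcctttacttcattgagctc
Bcl2a1d: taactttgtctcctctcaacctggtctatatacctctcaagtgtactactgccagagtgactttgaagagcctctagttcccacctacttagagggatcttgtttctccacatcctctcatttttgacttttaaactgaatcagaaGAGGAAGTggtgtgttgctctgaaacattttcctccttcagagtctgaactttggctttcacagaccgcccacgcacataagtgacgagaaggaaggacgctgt
Fcgr2b: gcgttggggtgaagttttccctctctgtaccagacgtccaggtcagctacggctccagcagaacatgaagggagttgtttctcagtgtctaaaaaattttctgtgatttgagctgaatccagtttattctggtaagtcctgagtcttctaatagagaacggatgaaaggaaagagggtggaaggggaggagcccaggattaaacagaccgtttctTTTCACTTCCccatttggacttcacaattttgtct
Ifit1: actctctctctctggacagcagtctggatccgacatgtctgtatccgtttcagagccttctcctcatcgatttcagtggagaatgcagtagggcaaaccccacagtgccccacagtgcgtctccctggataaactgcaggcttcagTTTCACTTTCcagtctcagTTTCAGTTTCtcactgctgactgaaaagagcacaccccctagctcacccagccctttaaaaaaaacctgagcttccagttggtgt
Isg15: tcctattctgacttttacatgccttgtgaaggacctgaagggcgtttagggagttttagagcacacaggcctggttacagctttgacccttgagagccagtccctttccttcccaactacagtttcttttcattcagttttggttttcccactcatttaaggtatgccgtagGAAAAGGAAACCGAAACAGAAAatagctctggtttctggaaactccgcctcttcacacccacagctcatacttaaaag

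Genes of receptors and pathways were then examined as lists. In the plot of the lists, the interferon-stimulated genes had the lowest median log2 fold change (-1.41) and the plasma cell and T cell lists the highest (0.87 and 1.55). The macrophage markers had a median of -0.71, and the medians of the other 19 lists lay between -0.5 and 0.5.

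**Figure D2:**
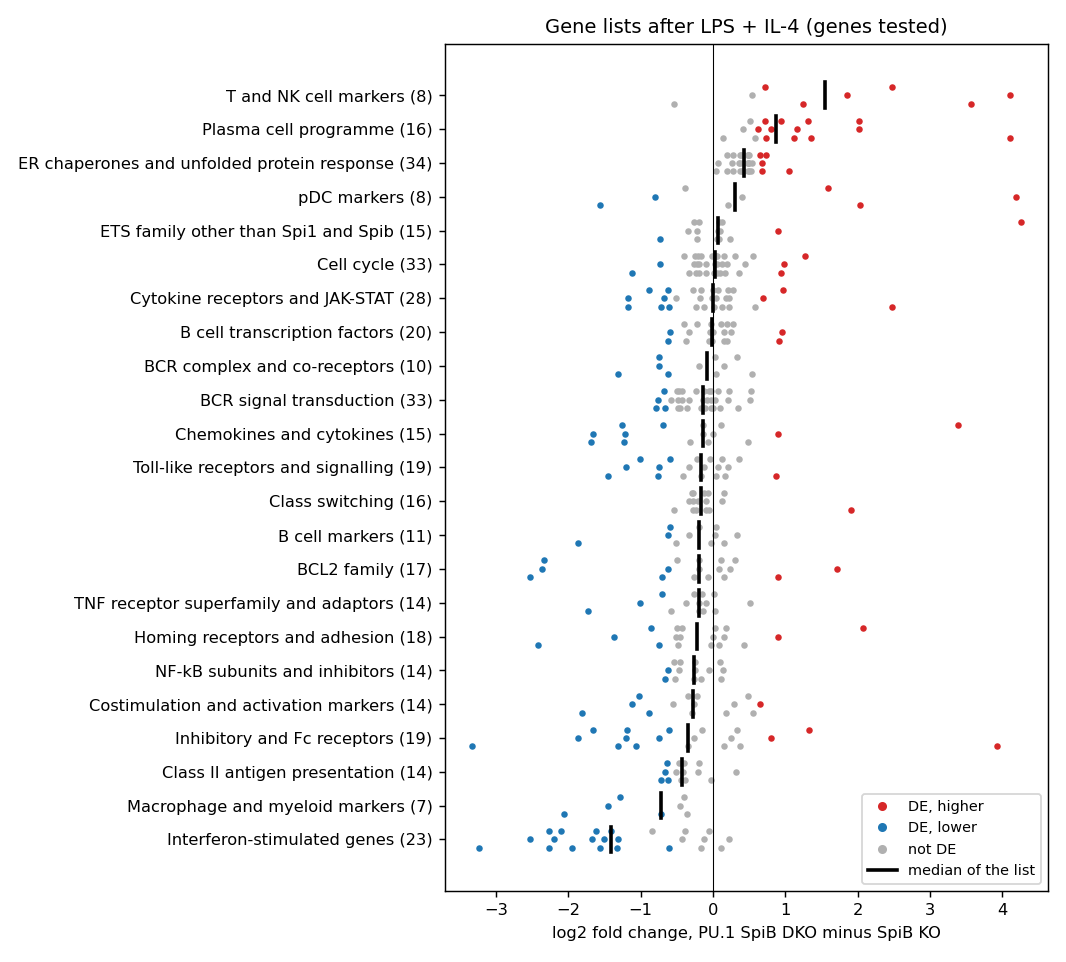
Log2 fold change of PU.1 SpiB DKO against SpiB KO after LPS + IL-4 (horizontal axis) for the tested genes of each list (rows, number tested in parentheses). Points are genes, red where DE and higher, blue where DE and lower and grey where not DE, and black bars are list medians, from -1.41 for interferon-stimulated genes to 1.55 for T and NK cell markers.

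Receptors through which B cells sense helper and survival signals were among the genes that fell. Of 14 tested members of the TNF receptor superfamily and their adaptors, 3 fell, beside 4.34% of all genes. Without the fold threshold, 5 were lower and 1 higher at an edgeR adjusted p under 0.15. Of all genes, 15.4% were lower and 15.6% higher by this criterion. Cd40, the receptor of T cell help, was at 149.6 and 146 CPM in SpiB KO against 40.5 and 48.4 CPM in PU.1 SpiB DKO (log2 fold change -1.73, SE 0.12, edgeR adjusted p = 3.72e-05). Tnfrsf13c, which encodes the BAFF receptor needed for B cell survival, was at 415 and 456 CPM against 204 and 230.4 CPM (-1.004, SE 0.09, edgeR adjusted p = 0.000179). Traf1, a signal adaptor of these receptors, fell by 0.70 on the log2 scale (edgeR adjusted p = 0.000775). The groups did not overlap for any of these genes, as in 59.3% of all tested genes.

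Of 19 tested Toll-like receptors, co-receptors and adaptors, 6 fell and 1 rose, beside 4.34% of all genes lower and 8.4% higher. Without the fold threshold, 8 were lower and 2 higher at an edgeR adjusted p under 0.15, beside 15.4% and 15.6% of all genes. Tlr9, the sensor of unmethylated CpG DNA, was at 77.5 and 86.4 CPM in SpiB KO against 27.4 and 32.7 CPM in PU.1 SpiB DKO (-1.45, SE 0.17, edgeR adjusted p = 0.000547). Ly86, which encodes MD-1, the partner of the LPS co-receptor RP105, was at 174 and 196 CPM against 79.2 and 81.4 CPM (-1.20, SE 0.09, edgeR adjusted p = 4.42e-05). Tlr4, the receptor for the LPS of this culture, stood at 18.6 and 18.9 CPM against 13.8 and 14.3 CPM. Its change of -0.41 (SE 0.12, edgeR adjusted p = 0.0474) did not reach the fold threshold. The groups did not overlap for Tlr4, as in 59.3% of all tested genes. Tirap, an adaptor between TLR4 and MyD88, rose by 0.88 (edgeR adjusted p = 0.000731). Tlr3, a sensor of double-stranded RNA, was at 1.41 and 1.25 against 0.785 and 0.540 CPM and stood at the threshold (-1.002, edgeR adjusted p = 0.148).

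Of 10 tested genes of the BCR complex and its co-receptors, 4 fell, and of 33 tested genes of BCR signal transduction also 4, beside 4.34% of all genes lower. Fcgr2b was at 110.2 and 117 CPM in SpiB KO against 41.4 and 50.5 CPM in PU.1 SpiB DKO (-1.31, SE 0.11, edgeR adjusted p = 0.000118). Ms4a1, which encodes CD20, fell by 0.62, Cd72 by 0.75 and Cr2, which encodes the complement receptor CD21, by 0.74 (edgeR adjusted p = 0.00131, 0.0131 and 0.0127). The signalling chain Cd79a was at 607 and 716 CPM against 808 and 854 CPM (0.33, SE 0.12, edgeR adjusted p = 0.0928), below the fold threshold. Its partner Cd79b was at 979.8 and 1159 against 1052 and 1146 CPM, and here the groups overlapped (0.040, edgeR adjusted p = 0.867, with a sign that depended on which library was left out). The BCR signal transduction list had a median of -0.14, and 14 of its genes were lower and 4 higher at an adjusted p under 0.15 without the fold threshold, beside 15.4% and 15.6% of all genes. Among those that fell were Rasgrp3, a Ras activator (135 and 155 CPM for SpiB KO against 77.4 and 90.7 CPM without both factors), the kinase Btk (206 and 193 against 118 and 117 CPM) and the PI3K adaptor Pik3ap1 (159.9 and 167 against 97.0 and 107 CPM). Their log2 fold changes were -0.79, -0.76 and -0.68, with edgeR adjusted p-values of 0.00525, 0.00199 and 0.00117.

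Genes through which B cells present antigen and engage T cells were also among those that fell. Of all genes, 4.34% were lower and 8.4% higher, which stands beside each list of this paragraph. Of 14 tested genes of class II antigen presentation, 9 were lower and 1 higher at an edgeR adjusted p under 0.15 without the fold threshold. By this criterion 15.4% of all genes were lower and 15.6% higher. With the fold threshold 4 class II genes fell, with a list median of -0.42. They were Ctss, the protease that trims the invariant chain (-0.71), the class II transactivator Ciita (-0.66), H2-Oa (-0.63) and Ifi30 (-0.62), with edgeR adjusted p-values of 0.00138, 0.0537, 0.0584 and 0.00978. Of 14 costimulatory and activation genes, 4 fell and 1 rose. Cd86, the ligand of CD28 on T cells, was at 63.8 and 72.9 CPM in SpiB KO against 17.4 and 21.6 CPM in PU.1 SpiB DKO (-1.81, SE 0.14, edgeR adjusted p = 7.22e-05), and Cd83 at 925 and 932 against 510.1 and 499 CPM (-0.88, SE 0.13, edgeR adjusted p = 0.00182). Icosl, the ligand of ICOS, and Slamf1 fell by 1.11 and 1.03 (edgeR adjusted p = 0.00719 and 0.00181). Of 19 tested inhibitory and Fc receptor genes, 9 fell and 3 rose. Siglecg, an inhibitory sialic acid receptor, was at 75.9 and 72.4 against 22.5 and 24.3 CPM (-1.66, edgeR adjusted p = 0.000221). Pirb, an inhibitory receptor of B and myeloid cells, was at 3.32 and 3.35 against 0.368 and 0.286 CPM (-3.32, edgeR adjusted p = 0.00224), and the B cell gene Fcrla at 42.9 and 49.4 against 12.6 and 12.8 CPM (-1.86, edgeR adjusted p = 0.00182). Fcer1g, the common Fc receptor gamma chain, moved the other way, from 0.674 and 0.537 CPM to 9.69 and 9.40 CPM (3.93, SE 0.32, edgeR adjusted p = 9.08e-05).

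Most genes of the plasma cell programme rose in these CD138- sorted cells. Of 16 tested members, 12 rose and 0 fell in edgeR, and 13 rose and 0 fell in DESeq2, with a list median of 0.87 beside -0.023 for all genes and 8.4% of all genes higher. At an edgeR adjusted p under 0.15 without the fold threshold, 14 were higher and 0 lower, beside 15.6% of all genes higher. Ell2, an elongation factor for secreted immunoglobulin mRNA, was at 98.5 and 95.1 CPM in SpiB KO against 433 and 355 CPM in PU.1 SpiB DKO (2.02, SE 0.10, edgeR adjusted p = 7.63e-06). Xbp1, the regulator of the secretory apparatus, was at 404 and 451 against 1044 and 1083 CPM (1.31, SE 0.09, edgeR adjusted p = 4.21e-05), and Prdm1, which encodes Blimp1, at 23.3 and 24.1 against 63.5 and 58.0 CPM (1.36, SE 0.12, edgeR adjusted p = 0.000115). Derl3, of the degradation of misfolded proteins, rose by 2.02 and the transcription factor Cebpb by 1.11 (edgeR adjusted p = 2.67e-05 and 0.00197). Sdc1, which encodes CD138, was at 5.65 and 5.37 CPM in SpiB KO against 8.15 and 7.59 CPM in PU.1 SpiB DKO. More cells of a type and more RNA per cell cannot be told apart in these bulk libraries. Of 34 genes of the ER chaperone and unfolded protein response list, 5 rose and 0 fell in edgeR and in DESeq2, and 28 were higher and 0 lower at an edgeR adjusted p under 0.15 without the fold threshold, beside the same 15.6%. All 34 log2 fold changes stood above 0 (0.037 to 1.06, median 0.43). Dnajb9, a chaperone induced by Xbp1, was the highest at 1.06 (21.9 and 23.5 against 46.3 and 48.0 CPM, edgeR adjusted p = 0.000248). Sec11c, a signal peptidase subunit, rose by 0.73, the co-chaperone Dnajc3 by 0.68 and the translocon subunit Sec61g by 0.68 (edgeR adjusted p = 0.000307, 0.000443 and 0.0246).

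**Figure D3:**
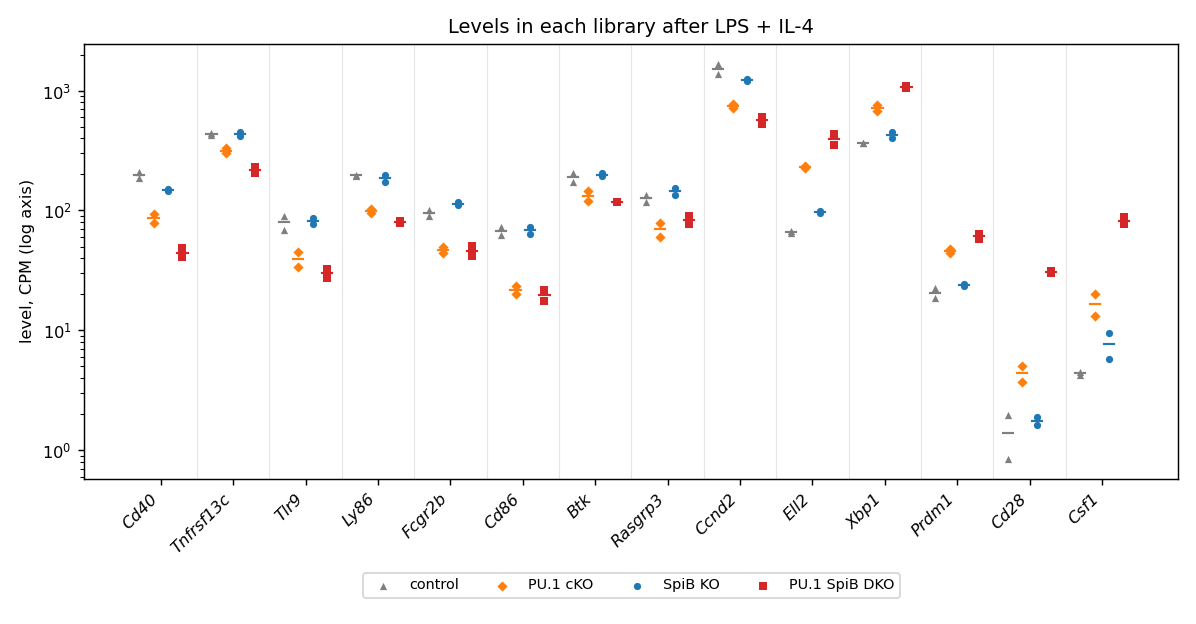
Levels of 14 named genes in CPM (vertical axis, log scale) after LPS + IL-4, with 1 symbol for each library and a bar at the mean of the 2 libraries of a genotype. From Cd40 to Ccnd2 both PU.1 SpiB DKO libraries (red squares) lie below both SpiB KO libraries (blue circles), and from Ell2 to Csf1 above them.

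Of 20 tested transcription factors of the B cell programme, 2 rose and 2 fell, with a list median of -0.01, beside 12.7% of all genes DE. Pax5, which maintains B cell identity, was at 149 and 143 CPM in SpiB KO against 104 and 89.0 CPM in PU.1 SpiB DKO (-0.60, SE 0.13, edgeR adjusted p = 0.0131), just past the fold threshold. Pou2f2, which encodes OCT2, was at 175 and 143 against 114 and 93.2 CPM (-0.62, SE 0.15, edgeR adjusted p = 0.0177). Bach2, a repressor of Prdm1, was at 146 and 141 against 115 and 102 CPM (-0.40, SE 0.10, edgeR adjusted p = 0.0191), and Irf4 at 311 and 324 against 481 and 465 CPM (0.58, SE 0.10, edgeR adjusted p = 0.00494), both under the fold threshold. Irf8 (0.28), Tcf3 (0.19), Bcl6 (0.16) and Tcf4 (-0.0035) did not reach it either, and the sign of Tcf4 depended on the setting. Pou2af1, the coactivator OBF1, rose from 829.6 and 852 to 1688 and 1492 CPM and Foxo1 from 158 and 174 to 327 and 317 CPM (0.92 and 0.96, edgeR adjusted p = 0.000426 and 0.000221). Of 15 other Ets factors tested, 2 rose and 1 fell, beside 8.4% of all genes higher and 4.34% lower. Ets1 was at 316 and 348 against 649 and 586 CPM (0.90, SE 0.13, edgeR adjusted p = 0.00148), Etv6 fell by 0.74, and Erg, detected by few reads, was at 0.0164 and 0.134 against 1.13 and 0.889 CPM.

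IL-4 receptor alpha was higher. Il4ra was at 1234 and 1174 CPM in SpiB KO against 2541 and 2187 CPM in PU.1 SpiB DKO (0.97, SE 0.11, edgeR adjusted p = 0.000402). Socs2, a feedback inhibitor of cytokine signals, was at 43.9 and 32.6 against 252 and 176 CPM (2.47, SE 0.19, edgeR adjusted p = 6.91e-05). Of 28 tested cytokine receptor and JAK-STAT genes, 3 rose and 7 fell, beside 8.4% of all genes higher and 4.34% lower. Among them were Il10ra and Csf2rb2, which fell by 1.18 each (edgeR adjusted p = 0.000522 and 0.015). The IL-5 receptor gene Il5ra was not DE (0.20, edgeR adjusted p = 0.25).

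Of 18 tested homing receptor and adhesion genes, 4 fell, Ccr6 among them, and 2 rose. Of all genes, 4.34% were lower and 8.4% higher, which also stands beside the other lists of this paragraph. S1pr2, a receptor that confines B cells to follicles, was at 1.43 and 1.21 against 4.88 and 6.41 CPM (2.07, edgeR adjusted p = 0.000856), and the integrin gene Itgb3 at 22.2 and 21.8 against 43.6 and 38.3 CPM (0.90, edgeR adjusted p = 0.00556). Of 15 tested chemokines and cytokines, 2 rose and 6 fell. Ccl22, a chemokine that attracts CCR4-bearing T cells, was at 85.7 and 84.5 CPM in SpiB KO, with a wide spread of 14.1 and 39.2 CPM in PU.1 SpiB DKO (-1.69, SE 0.36, edgeR adjusted p = 0.0121), against 462 and 556 CPM in control. Ebi3, a subunit of IL-27 and IL-35, fell by 1.26 and Cxcl10, an interferon-induced chemokine, by 1.66 (edgeR adjusted p = 0.000661 and 0.000857). Of 17 BCL2 family genes, 5 fell and 2 rose, among them Bcl2a1a at 0.969 and 0.850 against 0.196 and 0.159 CPM (-2.34, edgeR adjusted p = 0.0109) and the pro-apoptotic Bik at 0.329 and 0.0894 against 1.08 and 0.540 CPM (1.72, edgeR adjusted p = 0.106), both of low level. Of 33 cell cycle genes, 3 rose and 2 fell, a share near the 12.7% of all genes. Ccnd2, which encodes cyclin D2, was at 1215 and 1241 against 523 and 608 CPM (-1.12, SE 0.12, edgeR adjusted p = 0.000367). The inhibitor Cdkn1a (6.69 and 7.33 against 17.9 and 15.8 CPM) and the E2F factor E2f2 (92.1 and 83.8 against 182 and 164 CPM) rose by 1.27 and 0.98 (edgeR adjusted p = 0.000472 and 0.000637). Cdkn2c, an inhibitor of cyclin D kinases, rose by 0.95 (edgeR adjusted p = 0.00102). Of 14 NF-kB genes, Rel (-0.66) and Nfkb2 (-0.63) fell (edgeR adjusted p = 0.00266 and 0.000874). Without the fold threshold, 8 of the 14 were lower and 0 higher at an edgeR adjusted p under 0.15, beside 15.4% of all genes lower.

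Most interferon-stimulated genes fell. They are antiviral genes that type I interferon induces through a complex of STAT proteins with IRF9. Of 24 listed, 23 were tested, and 15 fell while 0 rose in edgeR and in DESeq2, against 4.34% of all genes lower. At an edgeR adjusted p under 0.15 without the fold threshold, 17 were lower and 0 higher, beside 15.4% of all genes lower. Under the alternatives 10 to 16 fell, and without SpiB KO replicate 1 there were 10. Their log2 fold changes lay between -0.61 and -3.23, with a median of -1.67. Ifit1, an inhibitor of viral translation, was at 29.8 and 32.8 CPM in SpiB KO against 6.75 and 9.59 CPM in PU.1 SpiB DKO (-1.94, SE 0.18, edgeR adjusted p = 0.000185). Irf7, the factor that amplifies interferon production, was at 12.2 and 12.5 against 3.85 and 4.57 CPM (-1.55, SE 0.17, edgeR adjusted p = 0.000417), and Oas3, an oligoadenylate synthetase, at 10.4 and 10.5 against 1.60 and 2.83 CPM (-2.26, SE 0.35, edgeR adjusted p = 0.00223). Oas2, Mx1 and Rsad2, all at 1.97 CPM or less in SpiB KO, changed by -3.23, -2.53 and -2.26 (edgeR adjusted p = 0.0106, 0.0163 and 0.00264). Isg15 at 64.3 and 63.8 against 19.98 and 25.0 CPM and the RNA sensor Ifih1 at 92.0 and 93.0 against 27.8 and 32.6 CPM, singled out after their values were seen for their level, changed by -1.51 and -1.62 (edgeR adjusted p = 8.89e-05 and 2.69e-05). For each of the 15 the control mean was the highest of the 4 genotypes, and for 14 the PU.1 SpiB DKO mean was the lowest. Not DE were 8 genes, among them Ifit2, Ddx58 and Isg20. Promoters were in the table for 10 of the 15, and 6 of these 10 hold GAAANNGAAA, as in Ifit1 and Isg15 above, beside 2.76% of the promoters of tested genes. Such a match is a known trait of interferon-stimulated genes, and the share in listed genes that did not fall is not given here. Without this list, 7.52% of the 492 promoters of genes that fell hold it.

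**Figure D4:**
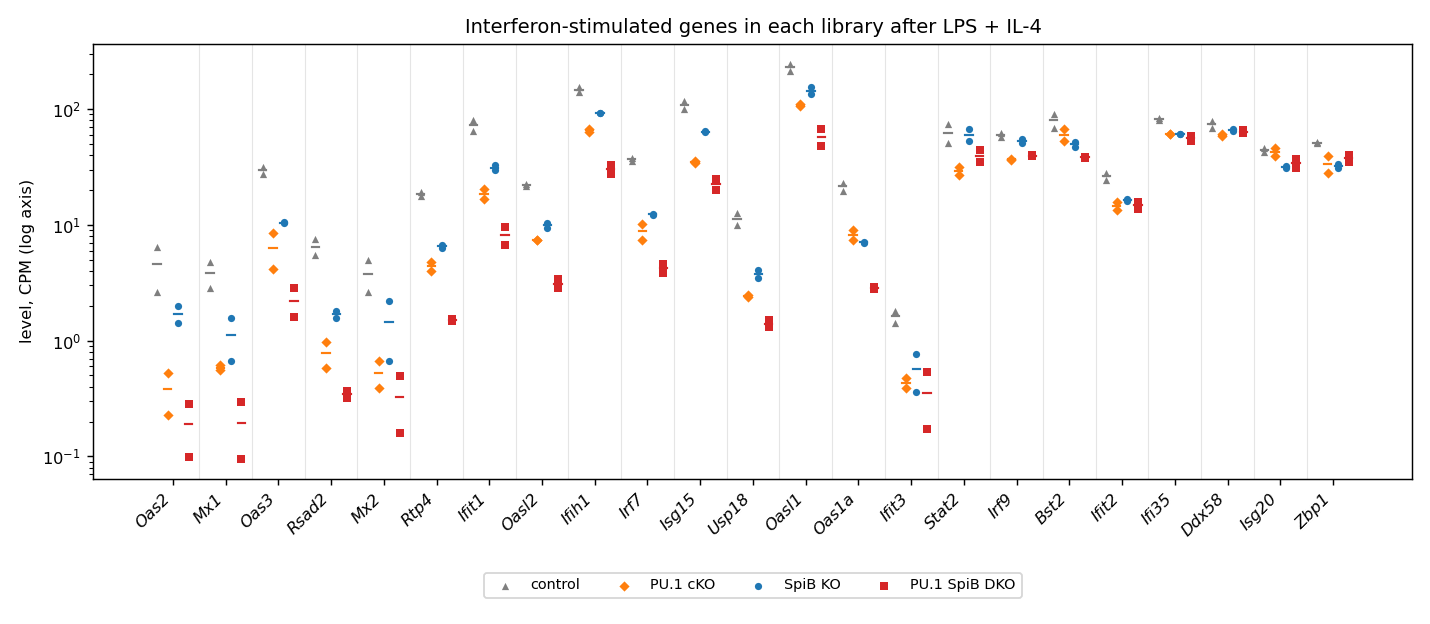
Levels of the 23 tested interferon-stimulated genes in CPM (vertical axis, log scale) in each library after LPS + IL-4, ordered by their change between PU.1 SpiB DKO and SpiB KO, with a bar at the mean of the 2 libraries of a genotype. For the genes that fell, control libraries (grey triangles) lie highest and PU.1 SpiB DKO libraries (red squares) lowest in 14 of 15 by their means, while Zbp1, Isg20 and Ddx58 at the right differ little.

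Markers of other cell types were read beside these changes. Of 23 listed T and NK cell markers, 8 were tested, and 6 rose, with a summed level of 141 and 135 CPM in SpiB KO against 334 and 326 CPM in PU.1 SpiB DKO. Those that rose were Cd28, Lat, Zap70, Prf1, Thy1 and Cd2. Lck, also part of the sum, was not among them, at 40.9 and 43.5 CPM in SpiB KO against 59.7 and 63.2 CPM in PU.1 SpiB DKO. Of all genes, 8.4% were higher and 4.34% lower, which also stands beside the other marker lists here. Cd28, a costimulatory receptor of T cells and also of plasma cells, was at 1.89 and 1.61 against 31.5 and 29.9 CPM (4.11, SE 0.30, edgeR adjusted p = 4.94e-05), and the kinase Zap70 at 9.64 and 10.9 against 55.2 and 58.0 CPM (2.47, SE 0.14, edgeR adjusted p = 1.94e-05). The T cell genes Cd3e and Cd8a were at or near 0 in the same libraries. Cd3e was at most 0.0164 CPM in SpiB KO and at 0 in PU.1 SpiB DKO, and Cd8a at most 0.148 and 0.0245 CPM. Ncr1 of NK cells was at 0 in all 8 libraries. Of 22 macrophage and myeloid markers, 7 were tested and Emr1, Mpeg1, Flt3 and Cd68 fell (-2.06, -1.45, -1.28 and -0.71, edgeR adjusted p = 0.00141, 0.000179, 0.000873 and 0.0837), with a summed level of 67.7 and 68.2 CPM against 25.1 and 27.1 CPM, and C1qa was at 0 in all 8 libraries. The part of these marker levels in the other results was not tested. Of 14 pDC markers, 8 were tested, 3 rose (Atp1b1, Ccr9 and Ly6c2) and 2 fell (Irf7 and Pacsin1), and Siglech was at most 0.0164 CPM in SpiB KO and at 0 in PU.1 SpiB DKO. Of 11 B cell markers, 3 fell, with summed levels of 11964 and 13627 against 9916 and 10451 CPM.

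The loss of PU.1 in cells that still have SpiB was measured in other libraries of this culture, as PU.1 cKO against control. Of 12054 genes tested there, 1254 (10.4%) were DE. Of the 11907 genes tested in both comparisons, 747 were DE in both with the same direction (482 higher and 265 lower), which is 52.3% of the 1428 genes DE between PU.1 SpiB DKO and SpiB KO and 61.6% of the 1213 of PU.1 cKO against control, and 11 were DE in opposite directions. All 15 interferon-stimulated genes that fell without both factors also fell in PU.1 cKO, where 19 of 23 fell against a background of 3.87% of genes lower. Of the plasma cell list, 9 of 16 rose in PU.1 cKO, with a median of 0.69, beside 6.53% of all genes higher there. PU.1 SpiB DKO and SpiB KO share the floxed alleles and differ in Cre. PU.1 cKO and control share Cre and differ in the floxed alleles. Absence of SpiB, Cre and the floxed alleles therefore cannot be told apart in a difference between the changes of these comparisons. The difference between both changes was tested for each gene and was called for 176 of 12209 (1.44%), at an adjusted p under 0.15 in edgeR. It was called for 79 genes with the higher and 97 with the lower change in PU.1 SpiB DKO against SpiB KO. Under a replicate block, which pairs the libraries of this culture, these counts were 557 and 816, at an adjusted p under 0.05 they were 18 and 31, and without 1 library 23 to 399 and 31 to 402.

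Cd28 changed further than in PU.1 cKO: it reached 31.5 and 29.9 CPM in PU.1 SpiB DKO but 5.04 and 3.67 CPM in PU.1 cKO, and the changes differed by 2.32 on the log2 scale (edgeR adjusted p = 0.0689). Spp1, which encodes osteopontin, was at 20.4 and 19.7 CPM in PU.1 SpiB DKO, with 4.84 and 4.53 CPM in PU.1 cKO, then 1.61 and 1.21 CPM in SpiB KO, and 1.30 and 1.38 CPM in control, a difference of 1.99 (edgeR adjusted p = 0.0097). Derl3 differed by 1.36 (edgeR adjusted p = 0.0097). Ccr6 differed by -2.15 (edgeR adjusted p = 0.00422), with its change in PU.1 cKO at -0.27. In the other direction, Bcl2a1b fell less against SpiB KO than against control, with a difference of 1.10 (edgeR adjusted p = 0.0245), and both groups without PU.1 had similar levels, 10.2 and 12.1 CPM in PU.1 SpiB DKO and 10.9 and 9.12 CPM in PU.1 cKO. Zap70 differed by -1.03 (edgeR adjusted p = 0.0929), and its level in SpiB KO was already above the 2.04 and 1.82 CPM of control. Fmnl2, a formin, rose here (3.75 and 3.44 against 11.5 and 11.7 CPM) but stood at -0.82 in PU.1 cKO, a difference of 2.51 (edgeR adjusted p = 0.059). Epcam, an adhesion gene, reached like levels in both groups without PU.1 (38.0 and 40.8 CPM, and 37.7 and 43.4 CPM) from 11.5 and 19.5 CPM in SpiB KO and 4.68 and 3.97 CPM in control, a difference of -1.87 (edgeR adjusted p = 0.0385). For Cd40, Tnfrsf13c and Tlr9 the differences of -0.54, -0.55 and -0.44 were not called (edgeR adjusted p = 0.255, 0.153 and 0.534). The calls of this test depended on the setting. Under some alternatives members of the TNF receptor list were called lower, and members of the Toll-like receptor list in either direction. A difference that was not called is therefore not shown to be absent.

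The same genotypes had also been cultured with CD40L + IL-4. The counts of that culture were deposited as a set separate from those of LPS + IL-4. Culture and set of counts therefore cannot be told apart in the differences between cultures. There 1952 of 12298 genes (15.9%) were DE between PU.1 SpiB DKO and SpiB KO. Of the 11867 genes tested in both cultures, 699 were DE in both with the same direction (455 higher and 244 lower), 48% of the 1457 of LPS + IL-4 and 37.2% of the 1878 of CD40L + IL-4, and 23 were DE in opposite directions. A fit of both cultures called a difference between the 2 changes for 2015 of 12734 genes (15.8%), and for 395 (25.4%) of the 1555 genes DE in LPS + IL-4. These counts depend on the setting: 1011 genes had the higher and 1004 the lower change in LPS + IL-4, against 250 and 210 at an adjusted p under 0.05, 210 and 153 without PU.1 SpiB DKO replicate 1 of LPS + IL-4, and 2144 and 1917 under a replicate block. The CD40L + IL-4 libraries were shallower, with 10022091 and 11434235 counts for SpiB KO, against 9846606 and 10118485 for PU.1 SpiB DKO, and Rn45s, a ribosomal RNA transcript, took 6.64% of the counts in PU.1 SpiB DKO replicate 1 against 0.507% to 1.79% in the 4 LPS + IL-4 libraries.

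The BCR signalling list was set side by side in both cultures. In CD40L + IL-4, 19 of its 33 genes fell (7.19% of all genes were lower), against 4 in LPS + IL-4, and the 4 were among the 19. In the fit of both cultures the list had a median log2 fold change of -0.15 in LPS + IL-4 and -0.78 in CD40L + IL-4. The change in LPS + IL-4 was above that in CD40L + IL-4 for 33 of 33 genes, beside 52.8% of all 12209 genes, and the difference was called for 18, all in this direction (7.94% of all genes). At an adjusted p under 0.05 it was called for 2, and the count was 25 with the replicate number as a block and 19 with DESeq2. Leaving out 1 library leaves 1 library in a group and changed the count strongly. It fell without any 1 of the LPS + IL-4 libraries compared. It also fell without SpiB KO replicate 1 or PU.1 SpiB DKO replicate 2 of CD40L + IL-4. Without PU.1 SpiB DKO replicate 1 or SpiB KO replicate 2 of CD40L + IL-4, more differences were called over all genes. Spi1 itself changed by -0.38 in LPS + IL-4 and by -1.82 in CD40L + IL-4 in this fit, and Spib by -0.30 and -1.61, with a called difference for both (edgeR adjusted p = 0.00851 and 0.0472). These levels count the whole gene, and the study reports high deletion of the floxed Spi1 exon in both cultures. The part of these levels in the result was not tested. Btk and Pik3ap1 were among the genes with a called difference (0.53 and 0.86, edgeR adjusted p = 0.129 and 0.0941), and Rasgrp3 was not (0.47, edgeR adjusted p = 0.243).

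**Figure D5:**
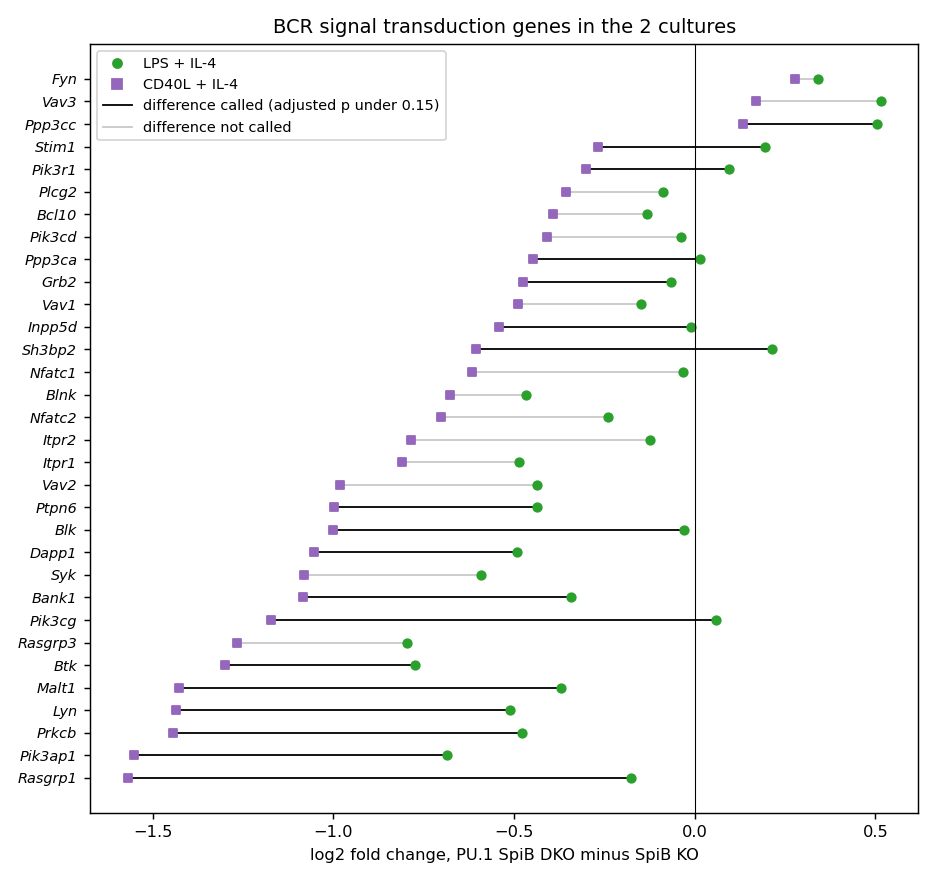
Log2 fold change of PU.1 SpiB DKO against SpiB KO (horizontal axis) for 32 of the 33 genes of the BCR signal transduction list (rows) in LPS + IL-4 (green circles) and CD40L + IL-4 (purple squares), from the fit of both cultures. Black lines join the 18 genes with a called difference and grey lines the others, and the circle lies to the right of the square for each gene drawn.

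The plasma cell list rose in both, with 12 of 16 genes in LPS + IL-4 beside 14 of 16 in the CD40L culture (8.68% of all genes higher), and the difference was called for 4 genes, all with the higher change in CD40L + IL-4 (7.88% of all genes). In the fit of both cultures Prdm1 rose by 3.09 in CD40L + IL-4 but by 1.35 in the LPS culture, a difference of -1.74 (edgeR adjusted p = 0.00134). Cd40 (difference -0.15, edgeR adjusted p = 0.745) and Tnfrsf13c (0.21, edgeR adjusted p = 0.606) were lower in PU.1 SpiB DKO in both cultures, and in CD40L + IL-4 they fell by 1.60 and 1.23 on the log2 scale. Of the interferon-stimulated genes, 18 were tested in CD40L + IL-4 and 7 fell, 13 of 23 stood under 10 CPM in every library of that culture, and a difference was called for 6 of 23, beside 15.8% of all genes. Ifit1 was among these, with 0 to 6 counts in each CD40L + IL-4 library. Nrgn, which encodes neurogranin, rose from 2.53 and 3.00 to 12.1 and 14.3 CPM in LPS + IL-4 and stood at -0.58 in CD40L + IL-4, a difference of 2.84 (edgeR adjusted p = 0.0164). The integrin gene Itgb5 had a called difference of -7.41 (edgeR adjusted p = 0.0291), which rests on 0 counts in each SpiB KO library of CD40L + IL-4 and 11 in each PU.1 SpiB DKO library and is no bound.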

How the data were processed

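RNA from sorted B cells was sequenced after a TruSeq preparation, which does not mark strand. Per the labels and methods, the authors aligned reads with Subread to mm10 (GRCm38), kept uniquely mapped reads and counted them per gene with featureCounts against RefSeq. The deposited raw counts of 27179 genes were used here, from separate sets for LPS + IL-4 and for CD40L + IL-4. The deposited log2 RPKM values, quantile-normalized by the authors, served only for a filter in an alternative.

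Counts of the 8 LPS + IL-4 libraries were fitted here with edgeR 4.0.16 (R 4.3.3, TMM normalization, 1 mean per genotype, quasi-likelihood test). Genes needed 0.5 CPM in at least 2 of the 4 libraries compared. Following the thresholds in the study's methods, DE meant an adjusted p (Benjamini-Hochberg) under 0.15 with a fold change over 1.5. The study's figure legends also require a log2 RPKM above 0, a condition applied here only as an alternative. Differences between changes were tested as contrasts at an adjusted p under 0.15, those between cultures in 1 fit of 16 libraries. The methods call the 2 libraries of a group biological replicates. An exact permutation test of 2 against 2 cannot go below p = 0.333, so p-values rest on the fit across genes. Same-numbered libraries deviated together in LPS + IL-4 (r = 0.386 to 0.514 between genotypes, 0.514 for SpiB KO and PU.1 SpiB DKO), and the replicate block was an alternative. In CD40L + IL-4 they did so weakly or not at all (r = -0.070 to 0.266, 0.263 for SpiB KO and PU.1 SpiB DKO). The block in the fit of both cultures therefore rests on a weaker pairing there. Steps were tested on simulated counts.

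Named were the targeted genes with Mybpc3 and Fcer2a, 24 genes the study names, the 10 DE genes with the largest change in each direction (libraries not overlapping, a mean of at least 10 CPM in the higher group), up to 4 DE genes of each list by size of change, and for each difference test the 3 largest in each direction among DE genes. Genes outside this rule were chosen after their values were seen. Some genes that the rule names are not reported here. The comparison and the lists were chosen with earlier results of these data known. Positions are from RefSeq GRCm38.p6, and exon overlaps from GENCODE vM21. Alternatives were DESeq2 1.42.0, limma 3.58.1 voom, RLE size factors, other filters and thresholds, the block and leaving out each library.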

Additional observations from a re-analysis of the deposited data

Results flagged for a closer look

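Among the genes named above, a change between genotypes differed in a direct edgeR test of the difference, at an adjusted p under 0.15, in 2 ways. All values are differences between log2 fold changes.

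The change of PU.1 SpiB DKO against SpiB KO lay above that of PU.1 cKO against control for Sec11c (0.47), Dnajb9 (0.67), E2f2 (0.71), Bcl2a1b (1.10), Derl3 (1.36), Csf1 (1.47), Spp1 (1.99), Cd28 (2.32) and Fmnl2 (2.51). It lay below for Ccr6 (-2.15), Mybpc3 (-2.12), Epcam (-1.87), Zap70 (-1.03) and Fcer2a (-0.77). For Mybpc3 the levels in both groups with PU.1 deleted were alike (342 and 296 CPM, and 323 and 292 CPM), and the control libraries held 0.173 and 0.198 CPM against 0.904 and 0.805 CPM in SpiB KO.

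The change of PU.1 SpiB DKO against SpiB KO in LPS + IL-4 lay above that in CD40L + IL-4 for Btk (0.53), Foxo1 (0.53), Tcf4 (0.66), Slamf1 (0.82), Itgb3 (0.85), Cdkn2c (0.86), Pik3ap1 (0.86), Ccr6 (0.87), Cd68 (0.88), Tlr9 (0.92), Ets1 (0.98), March1 (1.05), E2f2 (1.17), Ms4a1 (1.18), Spib (1.31), Siglecg (1.36), Spi1 (1.44), P2rx3 (1.45), Zap70 (1.59), Socs2 (1.61), Lat (1.69), Spp1 (2.19), Lifr (2.57), Nrgn (2.84), Zfp521 (3.16) and Slpi (4.16). It lay below for Itgb5 (-7.41), Bcl2a1a (-4.37), Ifit1 (-3.27), Ccl22 (-3.08), Lad1 (-2.94), Flt3 (-1.99), Prdm1 (-1.74), Mpeg1 (-1.43), Bcl2a1b (-1.16), Icosl (-1.10), Traf1 (-0.95), Nfkb2 (-0.81) and Etv6 (-0.45). In CD40L + IL-4, Slpi was already at 190 and 408 CPM in SpiB KO, with 441 and 342 CPM in PU.1 SpiB DKO. Ifit1 rests on at most 6 counts in each library of that culture, so its difference is uncertain.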

How the results depend on the processing

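Between PU.1 SpiB DKO and SpiB KO, the 1025 genes higher became 620 when a mean log2 RPKM above 0 was required, and 695 to 925 when 1 library was left out (406 to 509 lower). With the replicate number as a block, 1551 of the 1555 genes remained DE, and the block changed no other call of this comparison by over 1.5 times. For PU.1 cKO against control, the 787 higher became 499 under the RPKM filter, and leaving out a library gave 501 to 850 higher and 305 to 589 lower. The 79 higher and 97 lower differences between these changes depended most on the setting: 193 and 167 with DESeq2, 371 and 408 without a filter, 18 and 31 at an adjusted p under 0.05, 557 and 816 with the replicate block, and 23 to 399 and 31 to 402 without 1 library. In CD40L + IL-4, the 1068 higher became 668 at an adjusted p under 0.05 and 689 under the RPKM filter, and 598 to 1381 without 1 library (471 to 1129 lower). The 1011 and 1004 differences between cultures became 250 and 210 at an adjusted p under 0.05, 2144 and 1917 with the replicate block, and 210 to 1429 and 153 to 1810 without 1 library. The cause was not tested.

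Tcf4 (log2 fold change -0.0035) turned to 0.0069 with DESeq2, 0.052 with voom, 0.0067 with RLE size factors, 0.015 with the filter over all libraries and 0.015 in a fit of the 4 libraries, and lay between -0.050 and 0.057 without 1 library. Cd79b (0.040) lay between -0.077 and 0.180 without 1 library. Pax5, Ms4a1, Nfkb2 and Ifi30 lost their call under voom and Irf4 gained one under DESeq2, all near the 1.5-fold threshold. The settings moved the median of all genes to between -0.038 and -0.004. With 2 libraries a group, genes of low level carried large errors, as Bik with an SE of 0.66 beside 0.09 for Xbp1.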
